A study of Mus musculus with 12 samples.

Results

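The imprinting control regions of H19, of Dlk1 and Meg3, and of Rasgrf1 carry DNA methylation inherited from sperm, and calls of ZFP57 and KAP1 in wild-type mouse embryonic stem cells were read at each of them. The members were all called peaks that overlapped any of 3 windows of the mm9 genome, set by position. The H19 window was chr7:149750000-149800000, the Dlk1-Meg3 intergenic window was chr12:110740000-110800000 and the Rasgrf1 window was chr9:89760000-89790000. In all, 12 of 13716 peaks lay in them, 4 at each locus. They made 4 distinct sites, a site being the union of overlapping peaks.

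Occupancy was measured by chromatin immunoprecipitation with sequencing (ChIP-seq), in which fixed DNA fragments pulled down by an antibody are sequenced and placed on the genome. The groups compared were wild-type A3 cells (strain 129X1/SvJ) and wild-type E14 cells (strain 129P2/OlaHsd), each with a ZFP57 list and a KAP1 list from 1 library. Both lines were grown without feeder cells with leukemia inhibitory factor, and the medium differed in that E14 received more serum and A3 alone received non-essential amino acids. Line, strain, medium and library cannot be told apart, and with 1 library per group no value has a replicate error or a p-value. The series also covers A3 cells lacking Zfp57, H3K9me3 and inputs, which were not analysed here. The lists give intervals and no gene activity, so the label of embryonic stem cells was not checked against markers.

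At most imprinted clusters the control region is methylated on the chromosome from the mother, and only a few carry the methylation from the father. ZFP57, one of the KRAB zinc finger family, recognises the methylated hexamer TGCCGC, and KAP1 (TRIM28) is the corepressor it recruits to keep the methylated copy marked by H3K9me3. On the methylated paternal chromosome the H19 control region permits expression of Igf2, a fetal growth factor, while on the unmethylated maternal chromosome it binds the insulator protein CTCF and H19, a long noncoding RNA, is expressed. The Dlk1-Meg3 intergenic region governs Dlk1, a paternally expressed transmembrane protein related to Notch ligands, and Meg3, a maternally expressed long noncoding RNA. The Rasgrf1 control region lies upstream of Rasgrf1, a paternally expressed exchange factor for Ras.

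The 3 loci divided into regions called in both lines and a region called in E14 alone. The Dlk1-Meg3 intergenic region and the Rasgrf1 region each had 1 ZFP57 peak and 1 KAP1 peak in A3, and 1 of each in E14. The H19 control region had 2 ZFP57 peaks and 2 KAP1 peaks in E14, and 0 of either in A3. No window held a peak of ZFP57 without KAP1 from the same line, or of KAP1 without ZFP57. Over the genome, E14 had 602 ZFP57 peaks and 1334 KAP1 peaks, and 159 sites had both proteins. A3 had 1485 ZFP57 peaks and 10295 KAP1 peaks. By a narrower count, of sites holding exactly 1 peak of each protein with the 2 overlapping, there were 63 in A3 and 157 in E14.

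**Figure D1:**
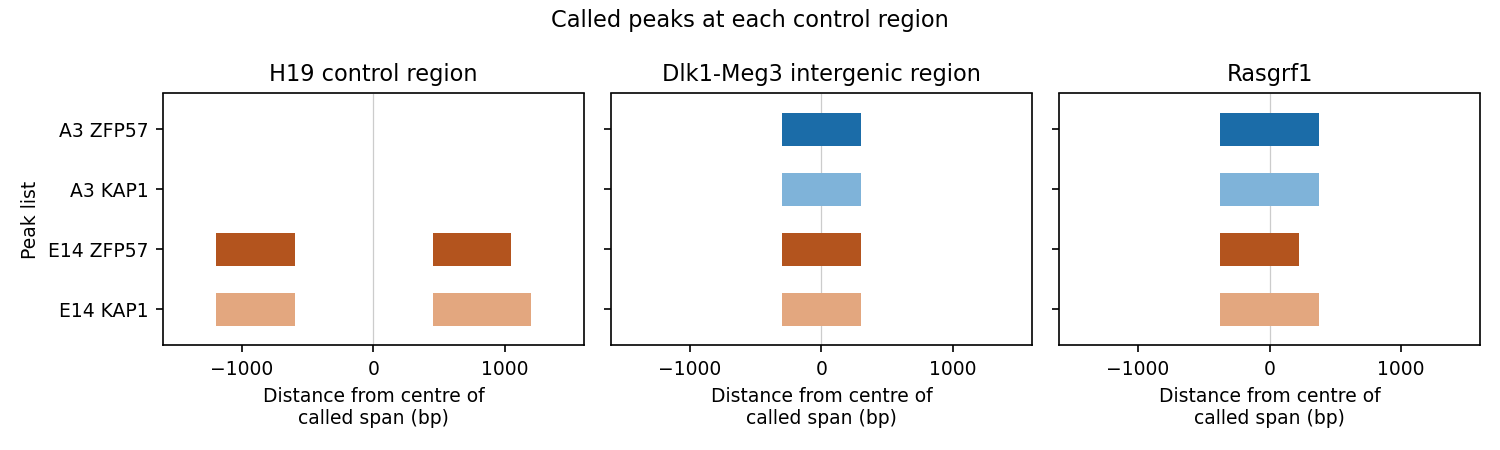
Called peaks in each of the 4 lists (rows) at each control region, drawn to scale by distance in bp from the centre of the called span; bars run from peak start to peak end. The Dlk1-Meg3 and Rasgrf1 regions have a bar in every row, and the H19 region has 2 bars in each E14 row and none in the A3 rows.

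The E14 peaks at the H19 control region formed a pair. The first ZFP57 peak lay at chr7:149765851-149766450 (600 bp, midpoint 149766150.5), and the first KAP1 peak had the same start and end. The second ZFP57 peak lay at chr7:149767501-149768100 (600 bp, midpoint 149767800.5). The second KAP1 peak started at the same base and ran 150 bp further, to 149768250 (750 bp, midpoint 149767875.5). Both sites were thus called for both proteins, and both lay in a span of 2400 bp. The gap between them was 1050 bp, with ZFP57 midpoints 1650 bp apart and KAP1 midpoints 1725 bp apart.

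Such close pairs were rare in E14. Of 159 E14 sites with both proteins, neighbours on the same chromosome were a median of 7.80 Mb apart, and the H19 pair was the only 1 of 138 neighbouring pairs with a gap of 2000 bp or less. The next closest pair lay on chromosome 17, with a gap of 2400 bp, and the third on chromosome X, with 4200 bp. Sites were unions over all lists, so close E14 peaks bridged by a peak of another list made a single site and were not counted as a pair. For example, 43 E14 KAP1 peaks lay in the 42 sites that had KAP1 alone in A3.

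The Dlk1-Meg3 intergenic region had a single site, chr12:110766301-110766900, with the same boundaries in all 4 lists. Each peak was 600 bp wide with its midpoint at 110766600.5. Of the 38 sites of the genome called in all lists, 7 (18.4%) had the same boundaries in all of them. No other peak of any list fell in the 60 kb window.

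The hexamer known for ZFP57 was sought in RefSeq promoters of the genes these regions govern, because sequence under the mm9 peaks was not used here. The promoters are 300 bp each (build GRCm38.p6), and TGCCGC or its reverse complement GCGGCA was present in 11.6% of all 32851 of them. It was in 1 of 2 Meg3 promoters, 1 of 4 Igf2 promoters and 0 of 1 for Dlk1 and for Rasgrf1. H19 had no entry. The Meg3 match is shown with its surroundings because Meg3 is the maternally expressed RNA of the cluster. The stretch runs from 220 to 155 bases before the start site on the plus strand (GRCm38.p6 chr12:109540776-109540841), and capitals mark the hexamer as its reverse complement, from 190 bases before the start.
Meg3 promoter stretch: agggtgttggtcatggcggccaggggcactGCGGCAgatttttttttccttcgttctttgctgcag
A match is a description of letters and not a bound site, and this GRCm38.p6 stretch was not placed among the mm9 peaks.

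At Rasgrf1 the A3 ZFP57 peak, the A3 KAP1 peak and the E14 KAP1 peak all lay at chr9:89774251-89775000 (750 bp, midpoint 89774625.5). The E14 ZFP57 peak began at the same base and ended at 89774850 (600 bp, midpoint 89774550.5). The 4 peaks therefore shared a start, and the single departure was 150 bp at the end, which is 1 step of the 150 bp grid on which all peaks were placed.

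ZFP57 and KAP1 boundaries coincided closely at these regions. The 6 pairs of a ZFP57 and a KAP1 peak from the same line had the same start in every case. Of them 4 had the same end too, and in 2 the KAP1 peak ended 150 bp later. How often pairs elsewhere share a start was not counted. The 2 with a longer KAP1 peak were both in E14, at the second H19 site and at Rasgrf1. Over all such pairs, however, the KAP1 peak was the wider in 31 of 63 in A3 (49.2%) and in 41 of 157 in E14 (26.1%). The ZFP57 peak was the wider in 6 (9.52%) and 30 (19.1%). The midpoint offset was 0 bp in 4 pairs and 75 bp in 2. Over all sites with 1 peak of each protein, the boundaries were identical in 24 of 63 A3 pairs (38.1%) and 82 of 157 E14 pairs (52.2%). The offset was at most 75 bp in 85.7% of the A3 pairs and 90.4% of the E14 pairs. The offsets at the control regions lay within that common range, and a grid of 150 bp permits no finer comparison.

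A call in any 1 list was uncommon for windows of these sizes. Among consecutive windows of 50 kb along the genome, the size of the H19 window, 1.12% held an E14 ZFP57 peak and 2.43% an E14 KAP1 peak. In A3, where the H19 window was empty, the shares were 2.70% for ZFP57 and 15.6% for KAP1. For the 60 kb of the Dlk1-Meg3 window the shares were 3.21% (A3 ZFP57), 18.1% (A3 KAP1), 1.33% (E14 ZFP57) and 2.89% (E14 KAP1). For the 30 kb of the Rasgrf1 window they were 1.66% (A3 ZFP57), 10.1% (A3 KAP1), 0.671% (E14 ZFP57) and 1.48% (E14 KAP1). The A3 KAP1 list, with 10295 peaks against 1334 in E14, reached windows of every size most often. An empty window was nevertheless the usual outcome in every list. These shares cover windows anywhere in the genome. They do not give how often A3 lacked a call where E14 had both proteins, which is counted below.

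Agreement between lists was counted over sites, which is a different unit from windows. Of 12833 sites in the genome, 38 (0.296%) were called in all lists, and the Dlk1-Meg3 and Rasgrf1 sites were 2 of them. The pattern of the H19 sites, with both proteins in E14 and neither in A3, was found at 66 sites (0.514%). Both shares depend on the unequal lists. The A3 KAP1 list brought 10295 peaks to the total, while the E14 ZFP57 list, needed for either pattern, had only 602.

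Over all E14 sites with both proteins, absence from A3 was the most frequent outcome, which did not hold among the sites with wide E14 peaks. Of these 159 sites, 66 (41.5%) had neither protein called in A3, among them both H19 sites. Another 42 (26.4%) had KAP1 alone in A3, 13 (8.18%) had ZFP57 alone, and 38 (23.9%) had both, among them the Dlk1-Meg3 and Rasgrf1 sites. On chromosome 7, where H19 lies, 10 of 20 such sites had neither A3 call and 6 had both. On chromosome 12 the numbers were 3 and 6 of 11, and on chromosome 9 they were 3 and 2 of 9. The H19 sites therefore shared their A3 status with many other E14 sites.

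**Figure D2:**
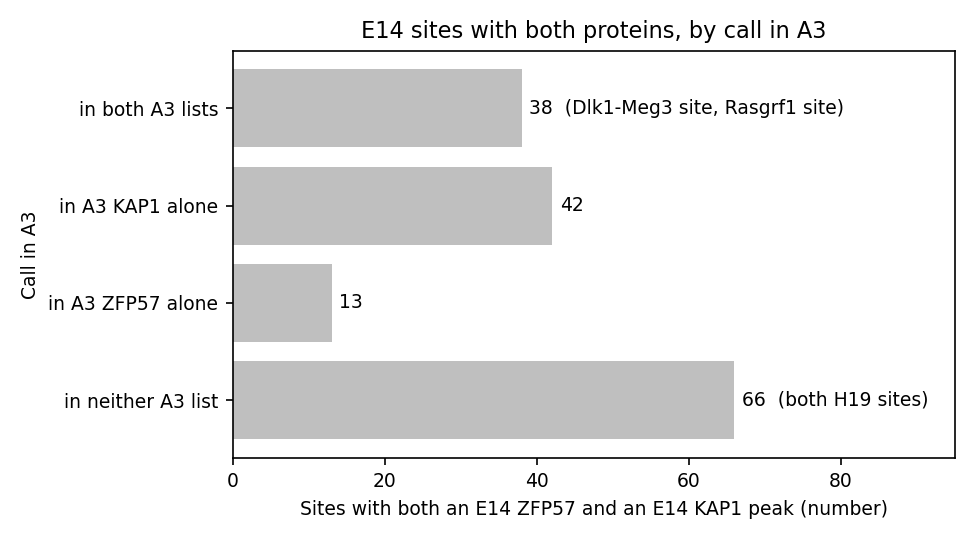
Number of E14 sites with both a ZFP57 and a KAP1 peak (horizontal axis, 159 in all), by what was called there in A3. The class with neither A3 call is the longest bar at 66 and holds both H19 sites, and the class with both A3 calls, at 38, holds the Dlk1-Meg3 and Rasgrf1 sites.

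Peak width is the only size these lists give, and it carries no amount of binding. Of the 12 member peaks, 8 were 600 bp wide and 4 were 750 bp, and none had the minimum of 300 bp. All 4 E14 ZFP57 peaks were 600 bp, a width equalled or exceeded by 29.1% of that list. In the A3 ZFP57 list the Dlk1-Meg3 peak of 600 bp stood among the widest 19.5% and the Rasgrf1 peak of 750 bp among the widest 8.75%. At the 38 sites called in all lists the median width was 600 bp for ZFP57 and 750 bp for KAP1 in both lines, so for ZFP57 the Dlk1-Meg3 peaks were at the median of those sites, and for KAP1 they were below it. In the E14 KAP1 list the first H19 peak and the Dlk1-Meg3 peak, at 600 bp, were within the widest 25.6%. The second H19 peak and the Rasgrf1 peak, at 750 bp, were within the widest 7.80%. A3 KAP1 peaks were wider in general, so that the Dlk1-Meg3 peak of 600 bp was at the list's median of 600 bp and 23.2% of the list was at least as wide as the Rasgrf1 peak of 750 bp.

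**Figure D3:**
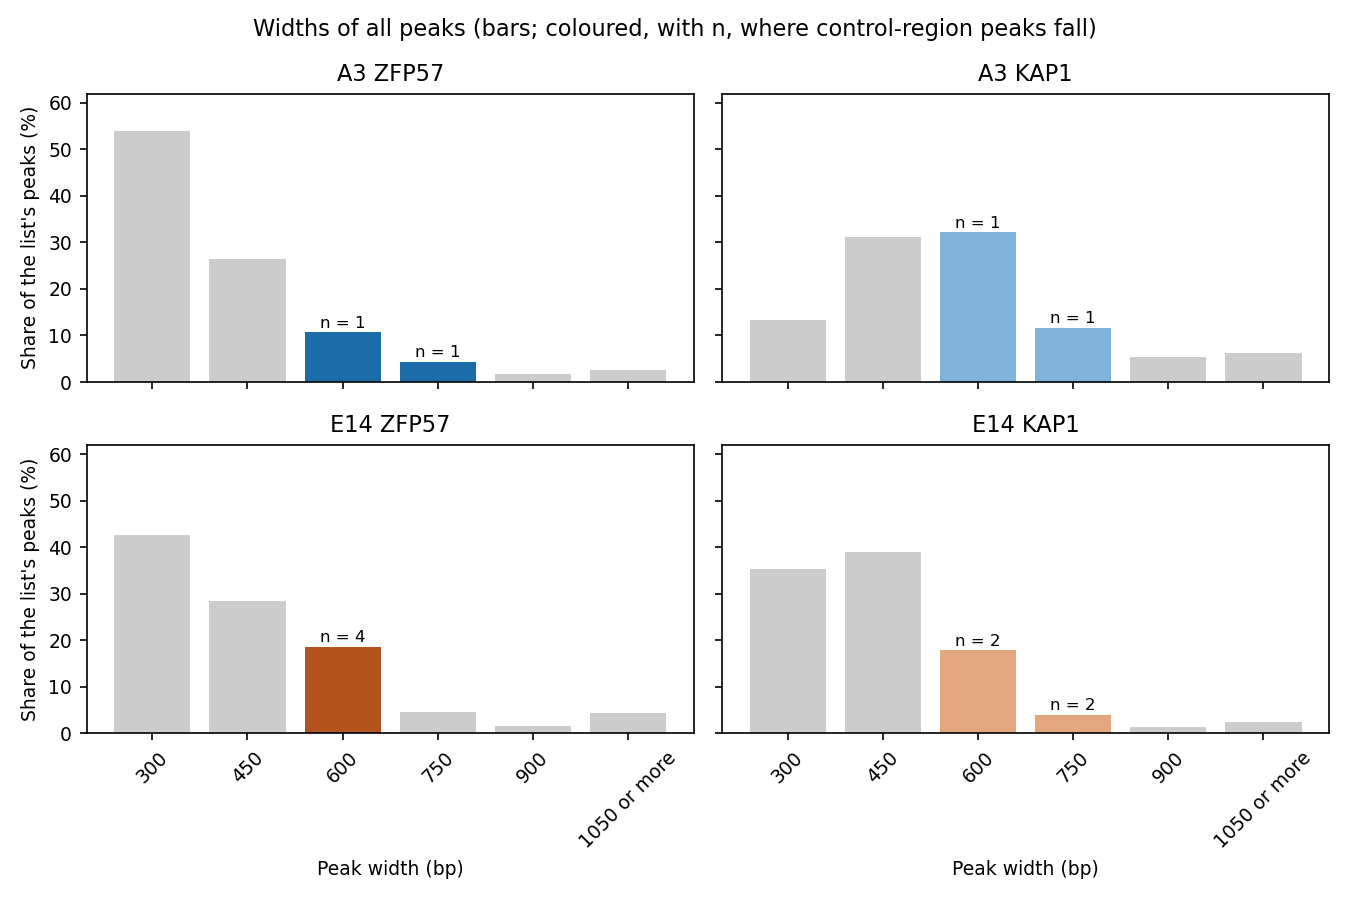
Share of each list's peaks (vertical axis, percent) at each width in bp (horizontal axis); coloured bars are the widths at which control-region peaks fell, with their number as n. All 12 fell at 600 or 750 bp, to the right of the most populated width in the A3 ZFP57, E14 ZFP57 and E14 KAP1 lists, whereas in the A3 KAP1 list 600 bp is itself the most populated width.

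The E14 peaks at H19 were wider than the medians of the sites with neither A3 call. At those sites the median E14 ZFP57 width was 525 bp and the median E14 KAP1 width 450 bp. Of the 66 sites, 25 (37.9%) had both E14 peaks at 600 bp or more, as both H19 sites did. That cut is the least width of any member peak, so the H19 sites meet it by definition. Why A3 had no call there was not tested. Where both proteins were called in A3 the median was 600 bp for E14 ZFP57 and 750 bp for E14 KAP1. Both E14 peaks were 600 bp or more at 32 of those 38 sites (84.2%). Among the 87 E14 sites with both peaks at 600 bp or more, a call in both A3 lists was thus the most frequent class, with 32 sites (36.8%) against 25 (28.7%) in neither. The E14 peaks at Dlk1-Meg3 (600 bp for both proteins) and at Rasgrf1 (600 bp for ZFP57 and 750 bp for KAP1) spanned the same widths as those at H19.

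The surroundings of the windows differed by list. Within 1 Mb of the H19 window, outside it, A3 KAP1 had 8 peaks and each of the other lists had 1. On the whole of chromosome 7, A3 KAP1 had 678 peaks, A3 ZFP57 70, E14 KAP1 92 and E14 ZFP57 34. All lists had a peak at the same place there, a site at chr7:150481351-150481950 called for both proteins in both lines, 713.1 kb beyond the second H19 site. Its width was 450 bp for A3 ZFP57 and 600 bp in the other 3 lists. That site was picked because all lists called it, and A3 KAP1 had other peaks between it and the H19 pair. Both A3 lists thus had a peak at that site and none at the H19 pair, and the reason was not tested. Seen from the H19 sites, the nearest A3 KAP1 peak was 89.7 kb from the first and 87.9 kb from the second, and the nearest A3 ZFP57 peak was 715 and 713 kb away. Over the 66 sites with neither A3 call the median distances were 77.6 kb to an A3 KAP1 peak and 596 kb to an A3 ZFP57 peak, and the H19 sites stood near the middle of those distances, with 37 of the other sites closer to an A3 KAP1 peak than the second H19 site and 28 farther.

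The Dlk1-Meg3 site was the only E14 peak of either protein within 1 Mb of its window. The nearest other E14 ZFP57 peak was 2339 kb from it and the nearest other E14 KAP1 peak 2781 kb. A3 ZFP57 had 1 further peak within that distance of the window, 946.8 kb from the site, and A3 KAP1 had 10, the nearest at chr12:110833051-110833500, 66.15 kb from the site. At Rasgrf1 E14 ZFP57 had 0 further peaks within 1 Mb of the window, E14 KAP1 had 1, A3 ZFP57 had 4 and A3 KAP1 had 8. A3 KAP1 had 428 peaks on the whole of chromosome 12 and 542 on chromosome 9. The lists also differed in spacing over the whole genome. The median gap between neighbouring peaks was 99.3 kb for A3 KAP1, 783.9 kb for A3 ZFP57, 1062 kb for E14 KAP1 and 2432 kb for E14 ZFP57. A median gap is not a mean spacing and gives no expected count, and no excess or lack of neighbours was tested.

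**Figure D4:**
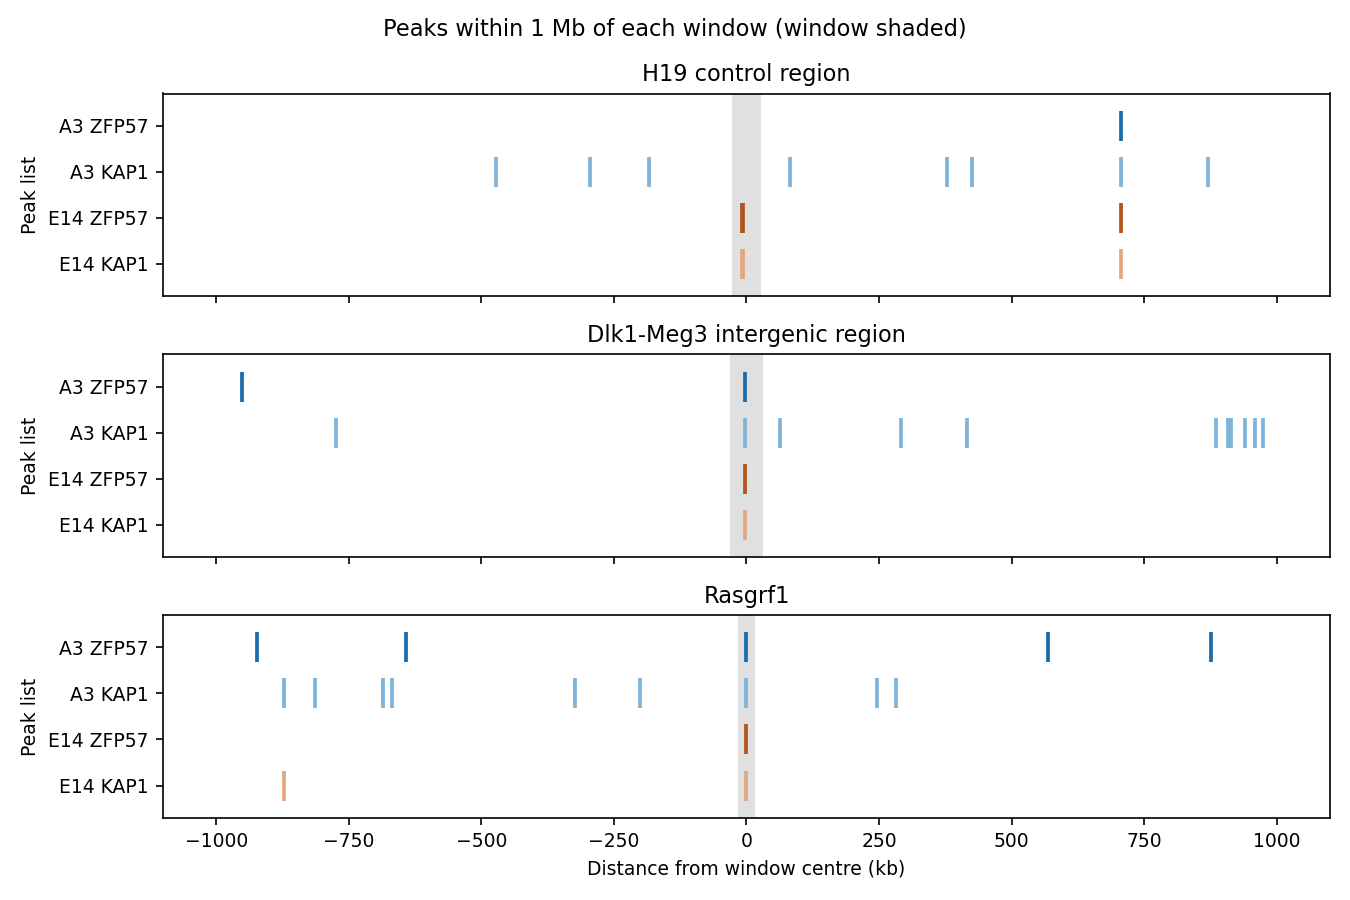
Peaks (ticks) of each list within 1 Mb of each window, by distance in kb from the window centre; grey marks the window. Each E14 list has peaks inside all 3 windows, A3 KAP1 has 8 ticks around an empty H19 window, and a tick in every list stands to the right of H19.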

How the data were processed

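The deposited files are lists of peaks called by the authors, 1 per library, with chromosome, start and end and no other measurement, so depth is unknown. The build was mm9 per the submitters' processing notes, which list bedtools 2.14.3-1, Bowtie 0.12.7, SAMtools 0.1.18 and CASAVA 1.8.2 without their roles. For the peak caller, the threshold and the role of the input, nothing was given in the sources used here. All starts lay 1 above a multiple of 150 and all ends on one, so positions were read as 1-based.

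Peaks of a list that overlapped or touched were joined, which shortened the KAP1 lists by 53 peaks (A3) and 3 (E14) and each ZFP57 list by 1, with no change in the windows. Overlap meant at least 1 bp. Consecutive windows ran from each chromosome's first base to the last peak end in any list. Every peak in the 3 windows is named, and outside them the nearest peaks, the close pairs and summaries. The members and lists were chosen with earlier results of these data known. Close pairs, the A3 classes of the E14 sites with their widths, the comparison of boundaries and the distances to A3 peaks were chosen after the peaks had been seen. Python 3.11.15 and matplotlib 3.10.9 were used, and overlap counts on simulated data were checked with bedtools 2.31.1. No genome or gene model of mm9 was used, so peaks are not placed in exons, introns or UTRs.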

Additional observations from a re-analysis of the deposited data

How the results depend on the processing

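Alternatives were recomputed for 31 results, which were the number of peaks at each locus in each list, the number of sites called in all lists, and the width and midpoint offset of each member peak. The settings were a peak midpoint inside the window, windows widened by 10 kb or 50 kb on each side, peaks as deposited, only peaks of at least 450 bp or at least 600 bp, a reciprocal overlap of 50%, and sharing within 1 kb. Not every setting was run for every result. Widths and midpoint offsets were recomputed only with peaks as deposited, and joining had changed nothing in the windows. Reciprocal overlap and sharing within 1 kb were run only for the number of sites called in all lists. The width cuts could not remove a member, as all were 600 or 750 bp wide. Of 94 alternative values, 93 were equal to those reported, but with unjoined peaks and with the width cuts this was fixed in advance. Under the other settings the values followed from positions already reported. No member lay near a window edge, and the nearest outside peak of any list was 33.05 kb from its window. Peaks of a site called in all lists differed by at most 150 bp. The equal values therefore add no separate support. The value that moved was the number of A3 KAP1 peaks at the Dlk1-Meg3 region. It was 2 in the window widened by 50 kb in place of 1, because the wider window takes in the peak at chr12:110833051-110833500. For the H19 region the A3 count of 0 could change only in the widened windows, and it stayed 0 at 10 kb and at 50 kb. The nearest A3 KAP1 peak started 56.15 kb from the window, shortly beyond the wider of these. No paired analysis was possible because each group has 1 library and no result comes from a test. A region without a called peak may still be bound below the authors' threshold, which the lists do not show, and the lists do not give the read support by which to compare the A3 and E14 libraries. Width cannot be read more finely than 150 bp.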
